A study of Mus musculus with 8 samples.

Results

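The genes described here encode the enzymes and regulators of glycolysis and glycogen metabolism. They were chosen by gene symbol, as members of the pathway, and all 31 were found among the 35949 genes of the deposited muscle count table. They fall into 13 forms known from skeletal muscle, 7 forms better known from other tissues or fiber types (both called here by these names whatever their level), and 11 forms that muscle shares with most tissues. RNA was measured in gastrocnemius, the large calf muscle, of aged mice that had received a transplant of hematopoietic stem cells (HSCs), either cells overexpressing SIRT3, a mitochondrial deacetylase, or control cells. The genotype labels are T3TG (4 libraries) and WT (4 libraries), and T3TG is read here as the SIRT3 arm. The library titles start with T3 in the T3TG group and with Mx1 in the WT group, and the labels spell out neither name. They also leave unsaid which promoter drives SIRT3, the age of the mice, and if the 8 libraries are 8 animals; p-values therefore measure the spread among libraries, which may be technical. The comparison asks if the genotype of the transplanted blood-forming cells goes with a different transcript level in the recipient's muscle.

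Glycolysis splits glucose into pyruvate and gives ATP without oxygen, and fast muscle fibers lean on it for short bursts of work. Most of its steps are served by several genes, of which 1 encodes the form that prevails in muscle, such as Pfkm, Eno3 or Pgam2. Glycogen is the store that feeds the pathway inside the fiber: phosphorylase releases glucose phosphate from it, and glycogen synthase builds it up again.

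Promoter sequences are shown for a muscle form and a non-muscle form of 1 enzyme, phosphoglycerate mutase, and for Ppp1r3a, which targets a phosphatase to glycogen in muscle. They are the 250 bases before the transcription start in RefSeq (GRCm38.p6), read 5′ to 3′ on the gene's strand. They lie at chr11:5803797-5804046 (minus strand) for Pgam2, chr6:14755275-14755524 (minus) for Ppp1r3a and chr19:41911621-41911870 (plus) for Pgam1. Capitals mark an E-box (CANNTG), a GC box (GGGCGG), the letters TATAAA, or the binding motif named after the muscle factor MEF2, each searched on both strands. Pgam2 and Ppp1r3a were picked because they have a single listed start and hold a MEF2 match. Pgam1 was added as the non-muscle partner of Pgam2. The MEF2 matches in Pgam2 and Ppp1r3a thus follow from the choice and are no finding about muscle forms.
Pgam2: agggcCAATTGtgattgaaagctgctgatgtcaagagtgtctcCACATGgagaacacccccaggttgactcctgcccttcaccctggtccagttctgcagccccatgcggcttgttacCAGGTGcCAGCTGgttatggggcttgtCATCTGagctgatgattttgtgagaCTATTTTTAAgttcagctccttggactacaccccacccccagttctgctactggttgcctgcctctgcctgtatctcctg
Ppp1r3a: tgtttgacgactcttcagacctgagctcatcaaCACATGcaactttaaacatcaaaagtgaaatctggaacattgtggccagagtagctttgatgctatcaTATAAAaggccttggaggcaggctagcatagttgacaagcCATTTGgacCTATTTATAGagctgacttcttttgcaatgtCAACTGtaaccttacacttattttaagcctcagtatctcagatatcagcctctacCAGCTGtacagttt
Pgam1: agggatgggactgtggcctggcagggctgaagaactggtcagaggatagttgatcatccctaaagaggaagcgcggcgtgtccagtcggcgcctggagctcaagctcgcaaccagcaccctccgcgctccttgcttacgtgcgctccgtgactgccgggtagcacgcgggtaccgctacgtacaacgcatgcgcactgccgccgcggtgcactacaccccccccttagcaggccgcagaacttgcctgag

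Pgam2 held 5 E-boxes and a MEF2 match that began 80 bases before the start. Ppp1r3a held 4 E-boxes, a TATAAA match that began 149 bases before the start and a MEF2 match that began 100 bases before it. The MEF2 match overlapped another TATAAA match on the other strand. In Pgam1 none of these 4 motifs was found in the window. RefSeq gave windows for 30 of the 31 genes, with 46 starts between them. A MEF2 match stood in 6.52% of those windows and in 2.92% of all 32851 windows of the same length. By gene, it was found in 3 of 13 muscle forms (Pgam2, Ppp1r3a and 1 of the starts of Pfkfb1), in 0 of 7 non-muscle forms and in 0 of 10 shared forms. That is 10% of the 30 genes, against 3.42% of all 27025 genes, and a gene with several starts has more windows to match. An E-box stood in 76.1% of the pathway's windows against 66.2% of all windows, a GC box in 43.5% against 32.7%, and TATAAA in 4.35% against 12.4%. The letters ACGTG, the core of the hypoxia response element, were in 32.6% against 16.6%, and the E-box CACGTG contains them. These matches describe letters and show no binding.

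The counted reads came to 16.2 to 28.1 M per library. In T3TG replicates 2 and 3 almost every count is an even number (97.5% and 98.0% of values from 10 to 99, against 50.5% to 52.5% in the other libraries), so results are also given for the 6 libraries without them. No pair of libraries of the same group agreed within sampling noise. Sirt3 in the muscle itself was at 17.7 ± 2.50 CPM in T3TG and 18.9 ± 2.49 CPM in WT (log2 fold change -0.09, SE 0.13). CPM are counts scaled to a common library size with TMM factors, and every mean below is given ± SD over 4 libraries per group. General muscle markers such as Acta1 and Ckm, which define the labelled tissue, summed to 64434 to 83340 CPM in T3TG and 72026 to 78163 CPM in WT.

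No gene of glycolysis or glycogen metabolism was called different between T3TG and WT muscle. Of the 31 genes, all of which passed the filter on low counts, 0 were called higher and 0 lower by the edgeR quasi-likelihood test at an adjusted p under 0.05, and DESeq2 also called 0. Over all 14064 genes tested, 0.0711% were called higher and 0% lower. Without adjustment, 1 of the 31 was higher in T3TG at p under 0.05 (Hk1) and 0 were lower, against 5.88% and 2.45% of all genes. The groups were separated without overlap, T3TG above or T3TG below, in 0 of the 31, against 3.12% and 1.66% of all genes.

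The median log2 fold change of the 31 was -0.0082, with 14 values above and 17 below 0, and the median over all genes was -0.0043. In the 6 libraries the 31 had a median of -0.019. For 25 of the 31 the log2 fold change was under 0.15 in size. The 95% interval lay within 1.2-fold in either direction for 10 genes and within 1.5-fold for 25. The 3 classes differed in how tightly they were bounded: within 1.5-fold lay 13 of 13 muscle forms, 10 of 11 shared forms and 2 of 7 non-muscle forms. The median SE was 0.109 in muscle, 0.0958 in shared and 0.159 in non-muscle forms, against 0.145 over all genes. The part of transcript level in these widths was not tested.

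**Figure D1:**
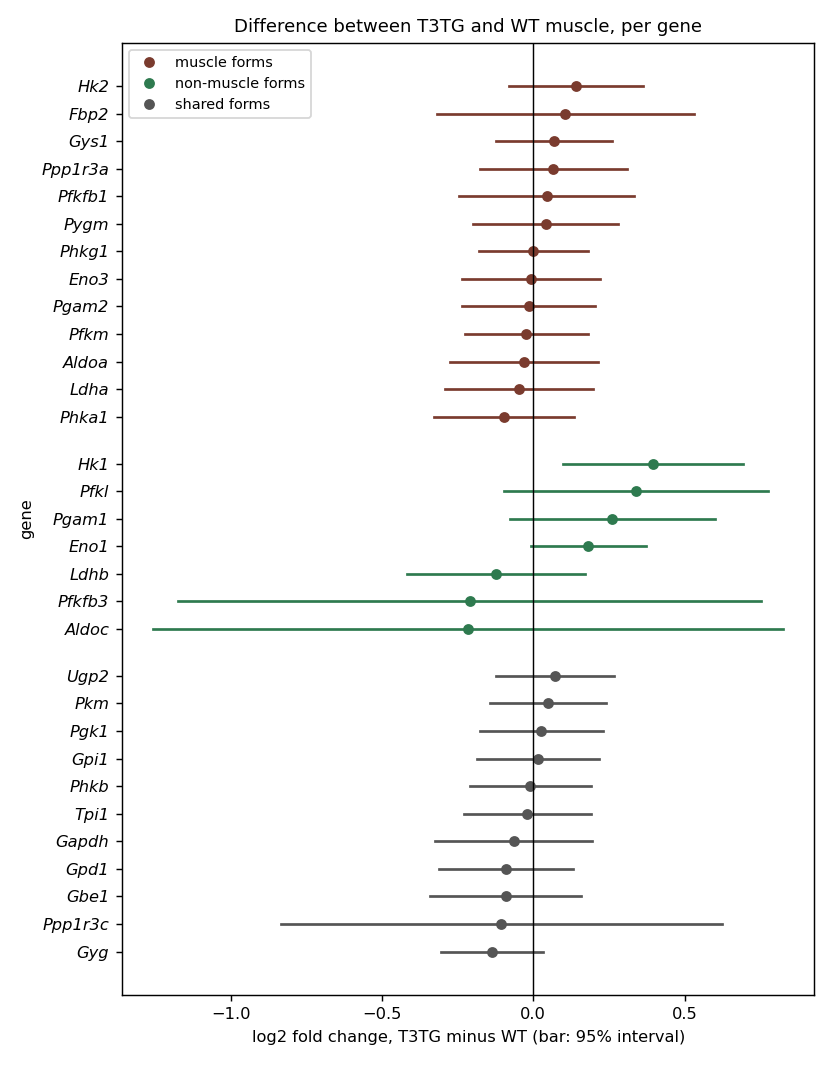
Log2 fold change of each gene, T3TG minus WT, from the edgeR fit over 8 libraries, with its 95% interval as a bar, in 3 blocks (muscle, non-muscle and shared forms). The muscle and shared forms cluster around 0, with long bars for Fbp2 and Ppp1r3c, the non-muscle forms spread from -0.21 to 0.40, and Hk1 alone has an interval that excludes 0.

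Per length of transcript, the muscle forms headed the pathway. Aldoa (aldolase, which splits fructose bisphosphate) had 10105 ± 1535 CPM per kb in T3TG and 10327 ± 783 CPM per kb in WT, far above the next gene. Eno3, the muscle enolase, followed with 3368 ± 445 CPM per kb in T3TG and 3388 ± 262 CPM per kb in WT. Pygm, the muscle phosphorylase that opens glycogen, came next with 2473 ± 407 CPM per kb in T3TG and 2404 ± 92.7 CPM per kb in WT. Pgam2 and Ldha followed, and Tpi1, Pkm and Pfkm then lay within each other's spread, between 1134 and 1196 CPM per kb in T3TG and between 1152 and 1165 CPM per kb in WT. At the low end stood the non-muscle forms Hk1, Pfkl and Pgam1, between 3.45 and 6.12 CPM per kb in T3TG and between 2.62 and 5.09 CPM per kb in WT, and Aldoc, the brain aldolase, at 0.207 ± 0.0428 in T3TG and 0.243 ± 0.141 in WT.

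Gapdh, the dehydrogenase often used as a reference gene, had a level of only 158 ± 28.1 CPM per kb in T3TG and 166 ± 18.8 CPM per kb in WT. Of the stretches of 75 bases in its transcript, 22.6% also occur in other annotated genes, 121 of them. Pgk1 shares 52.8% of its stretches, Pgam1 34.9%, Eno1 23.0%, Pkm 17.8%, Ldhb 12.6% and Gpi1 10.8%, and 17 of the 31 share some. How the authors' counting treated reads that fit several genes is not given in the sources used here, so levels of these genes are uncertain.

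**Figure D2:**
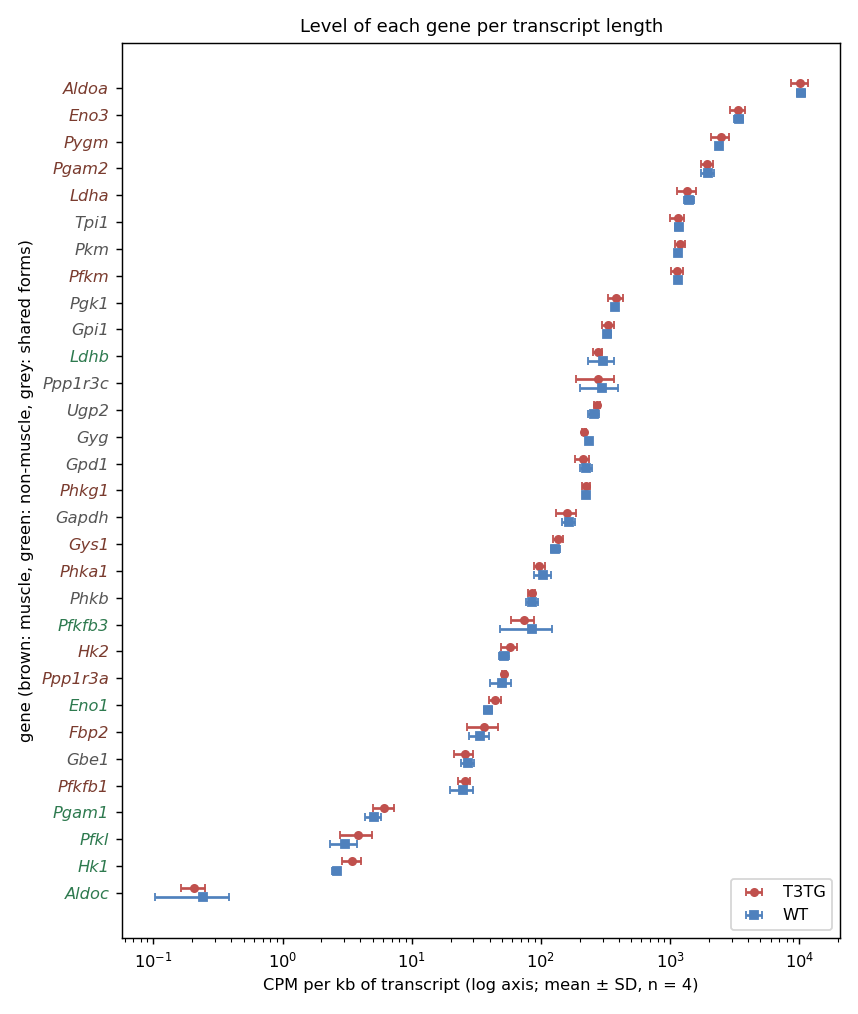
Level of each of the 31 genes in CPM per kb of transcript on a log axis, as mean ± SD over 4 T3TG libraries (red circles) and 4 WT libraries (blue squares), ordered by level. The 2 means of a gene lie close together over the whole range, from Aldoa at the top down to Aldoc near 0.2 CPM per kb.

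The 31 genes together took 4.48%, 4.55%, 5.25% and 5.08% of the counts in T3TG replicates 1 to 4, against 4.47%, 4.80%, 4.75% and 4.90% in WT replicates 1 to 4. The group ranges overlap, and the 2 highest shares are those of T3TG replicates 3 and 4. The means were 4.84% ± 0.383 in T3TG and 4.73% ± 0.185 in WT, a difference of 0.113 percentage points (two-sided exact permutation p = 0.571 over 8 libraries, smallest possible p 0.0286). In the 6 libraries the difference was 0.0546 points, and without T3TG replicate 3 it was -0.0238 points. Aldoa alone supplied 30.9% to 33.9% of these counts in every library.

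Among the muscle forms of the glycolytic steps, Aldoa (chromosome 7 from 126795234 to 126800994, GRCm38) had 13045, 13778, 18147 and 16104 CPM in T3TG replicates 1 to 4, against 14121, 16296, 15225 and 16776 CPM in WT replicates 1 to 4. After TMM scaling, which lowers T3TG replicates 1 and 2 most (factors 1.06 and 1.04), T3TG held both the lowest pair of libraries and the highest library. The WT values lay inside the T3TG range. The log2 fold change was -0.03 (SE 0.12, edgeR adjusted p = 0.968), with an interval from 0.826-fold to 1.16-fold.

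Hk2, the insulin-responsive hexokinase that commits glucose to the cell, had the largest positive log2 fold change of the muscle forms, with 315 ± 43.2 CPM in T3TG and 285 ± 26.0 CPM in WT (0.14, SE 0.10), and it did not pass (edgeR unadjusted p = 0.190). Pfkm, the phosphofructokinase that sets the pace of the pathway in muscle, had 3264 ± 333 CPM in T3TG and 3316 ± 170 CPM in WT (-0.02, SE 0.10). Pgam2 had 1629 ± 175 CPM in T3TG and 1647 ± 178 CPM in WT (-0.02, SE 0.10), and Eno3 had 5268 ± 696 CPM in T3TG and 5298 ± 410 CPM in WT (-0.01, SE 0.11). For these 3 genes the group means differed by less than the SD within either group.

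The shared forms of the steps in between were as level. Gpi1, which turns glucose phosphate into fructose phosphate, had 954 ± 102 CPM in T3TG and 944 ± 56.4 CPM in WT (log2 fold change 0.02, SE 0.09). Tpi1, which interconverts the triose phosphates, had 1847 ± 230 CPM in T3TG and 1872 ± 104 CPM in WT (-0.02, SE 0.10). Gapdh, which makes the NADH of the pathway, had 225 ± 40.0 CPM in T3TG and 235 ± 26.7 CPM in WT (-0.06, SE 0.12). The enzymes that make ATP, Pgk1 and Pkm (phosphoglycerate kinase and pyruvate kinase), had log2 fold changes of 0.03 and 0.05 (SE 0.10 and 0.09). Pkm stood at 2909 ± 238 CPM in T3TG and 2813 ± 98.8 CPM in WT. A table by gene symbol does not separate the M1 and M2 splice forms of Pkm.

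Among the non-muscle forms Hk1, the hexokinase of brain, red cells and many other tissues, had the largest log2 fold change (chromosome 10 from 62268855 to 62379920). Hk1 was the 1 gene of the 31 at an edgeR unadjusted p under 0.05, where 5.88% of all genes were higher in T3TG. It had 10.6, 16.1, 13.6 and 12.9 CPM in T3TG replicates 1 to 4, against 9.53, 9.65, 10.04 and 11.07 CPM in WT replicates 1 to 4. T3TG replicate 1 lay below the highest WT library, and the other 3 T3TG libraries lay above all WT libraries. The log2 fold change was 0.40 (SE 0.14), an interval from 1.07-fold to 1.62-fold, with an edgeR unadjusted p of 0.0123 and an adjusted p of 0.428. In the 6 libraries the log2 fold change was 0.22 (unadjusted p = 0.190), and without T3TG replicate 2 alone it was 0.29 (unadjusted p = 0.0576).

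The other non-muscle forms of glycolytic steps had smaller differences and overlapping groups. Eno1, the enolase of most tissues, had 79.9, 86.4, 102 and 91.2 CPM in T3TG replicates 1 to 4, against 79.0, 73.1, 79.4 and 85.9 CPM in WT replicates 1 to 4. Its lowest values were in WT and its highest in T3TG, with T3TG replicate 1 among the WT values (log2 fold change 0.18, SE 0.09, edgeR unadjusted p = 0.0596, adjusted p = 0.626). Its log2 fold change was 0.11 in the 6 libraries and also without T3TG replicate 3 alone. Pfkl, the liver phosphofructokinase, had 14.4 ± 4.09 CPM in T3TG and 11.4 ± 2.75 CPM in WT (0.34, SE 0.20), with its highest value, 20.3 CPM, in T3TG replicate 3. For Pfkl the log2 fold change was 0.04 in the 6 libraries and 0.12 without T3TG replicate 3 alone. Pgam1, the mutase of most tissues, had 10.9 ± 2.01 CPM in T3TG and 9.03 ± 1.26 CPM in WT (0.26, SE 0.16). Its log2 fold change was 0.23 in the 6 libraries and 0.13 without T3TG replicate 2. Aldoc reached at most 1.21 CPM in any library (-0.21, SE 0.49), too low for a bound narrower than 0.419-fold to 1.77-fold.

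**Figure D3:**
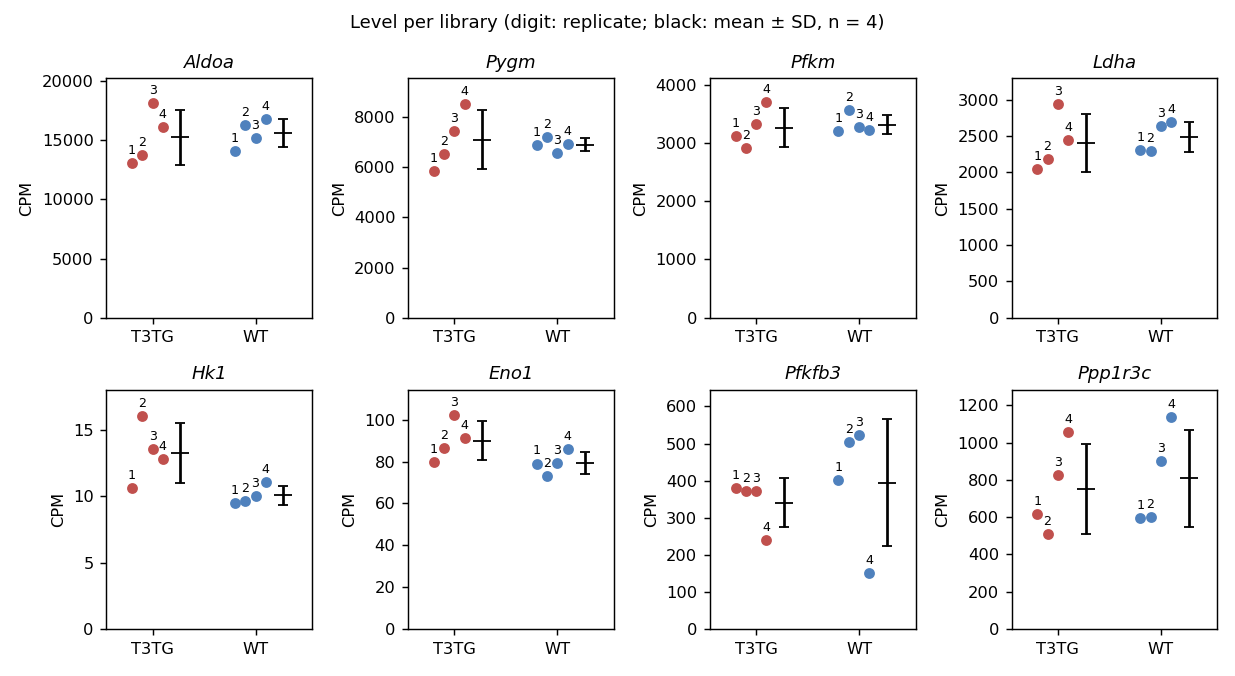
CPM in each library for 8 genes, T3TG in red and WT in blue, with the replicate number as a digit and mean ± SD (n = 4) in black, each axis starting at 0. The muscle forms Aldoa, Pygm, Pfkm and Ldha overlap broadly, 3 of 4 T3TG libraries lie above WT in Hk1, and Pfkfb3 and Ppp1r3c vary most within each group.

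In lactate and glycerol phosphate metabolism all 3 genes had slightly lower values in T3TG and none passed. Ldha, the lactate dehydrogenase subunit of fast muscle (chromosome 7 from 46842274 to 46855627), had 2046, 2179, 2946 and 2448 CPM in T3TG replicates 1 to 4, against 2309, 2299, 2641 and 2692 CPM in WT replicates 1 to 4. As with Aldoa, T3TG held the lowest pair and the highest library after TMM scaling, and the log2 fold change was -0.05 (SE 0.11). Ldhb, the subunit that prevails in heart and slow fibers, had 359 ± 30.5 CPM in T3TG and 391 ± 89.0 CPM in WT (-0.12, SE 0.14). Its highest value, 509 CPM, was in WT replicate 4, the library with the highest sum of slow fiber markers, 4147 CPM against 1996 to 3031 CPM in the other 7. The part of fiber type in Ldhb was not tested. Gpd1, the cytosolic enzyme of the glycerol phosphate shuttle, had 604 ± 74.7 CPM in T3TG and 642 ± 66.3 CPM in WT (-0.09, SE 0.10).

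Glycogen breakdown was carried by Pygm (chromosome 19 from 6384408 to 6398464). It had 5862, 6544, 7474 and 8554 CPM in T3TG replicates 1 to 4, against 6879, 7233, 6584 and 6938 CPM in WT replicates 1 to 4. The T3TG libraries spread on both sides of the WT libraries, which stood close together, and the log2 fold change was 0.04 (SE 0.11, edgeR adjusted p = 0.952). The subunits of phosphorylase kinase, which switches phosphorylase on, were Phka1 (596 ± 56.6 CPM in T3TG and 637 ± 92.8 CPM in WT), Phkb (455 ± 28.1 CPM in T3TG and 458 ± 49.9 CPM in WT) and Phkg1 (530 ± 35.6 CPM in T3TG and 530 ± 30.2 CPM in WT). Their log2 fold changes were -0.10, -0.01 and -0.0003, with SE of 0.11, 0.09 and 0.08. Phka1 and Phkb were both lowest in WT replicate 4, with 516 and 392 CPM.

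Glycogen synthesis showed no called difference either. Ppp1r3c, another subunit that brings the phosphatase to glycogen (chromosome 19 from 36731731 to 36736604), had 616, 507, 825 and 1057 CPM in T3TG replicates 1 to 4, against 595, 601, 901 and 1136 CPM in WT replicates 1 to 4. Each group held 2 low and 2 high libraries, and the within-group spread was larger than any group difference (log2 fold change -0.11, SE 0.31). Ppp1r3a had 362 ± 14.4 CPM in T3TG and 345 ± 65.5 CPM in WT (0.07, SE 0.11). Gys1, the muscle glycogen synthase, had 499 ± 41.5 CPM in T3TG and 476 ± 38.2 CPM in WT (0.07, SE 0.09).

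The remaining enzymes of synthesis were bounded more closely than Ppp1r3c. Gyg (glycogenin, the primer of the glycogen particle) had 365 ± 13.9 CPM in T3TG and 402 ± 22.7 CPM in WT, a log2 fold change of -0.14 (SE 0.08, edgeR unadjusted p = 0.106, adjusted p = 0.683). WT replicate 1, at 371 CPM, alone reached into the T3TG range, and the other 3 WT libraries lay above it. Ugp2, which makes the UDP-glucose that feeds synthesis, had 727 ± 40.8 CPM in T3TG and 692 ± 69.2 CPM in WT (0.07, SE 0.09). Gbe1, the branching enzyme, had 73.0 ± 12.5 CPM in T3TG and 77.8 ± 9.09 CPM in WT (-0.09, SE 0.12).

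The enzymes that set the level of fructose 1,6-bisphosphate and its regulator fructose 2,6-bisphosphate had 0 calls, and Pfkfb3 varied widely between libraries. Pfkfb3, an inducible kinase form that makes the regulator (chromosome 2 from 11471430 to 11554071), had 380, 372, 372 and 241 CPM in T3TG replicates 1 to 4, against 401, 503.7, 523 and 151 CPM in WT replicates 1 to 4. Replicate 4 was the lowest library of each group, and among the others every WT library stood above every T3TG library. The log2 fold change was -0.21 (SE 0.40, edgeR unadjusted p = 0.617), and it depended on single libraries. It was -0.48 without WT replicate 4 (unadjusted p = 0.0112, adjusted p = 0.344), -0.07 without WT replicate 2, -0.04 without WT replicate 3 and -0.08 without T3TG replicate 4. With a block on the first title number it had the other sign, 0.47. The numbers of WT replicates 1 and 3 do not occur in T3TG, so in that fit WT replicates 2 and 4 alone stand for WT. Pfkfb1, the form of muscle and liver, had 44.6 ± 4.86 CPM in T3TG and 43.2 ± 8.99 CPM in WT (0.05, SE 0.13). Fbp2, the muscle fructose bisphosphatase that runs the step backwards, had 49.3 ± 13.2 CPM in T3TG and 45.9 ± 8.22 CPM in WT (0.11, SE 0.19).

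Each enzyme with a muscle and a non-muscle form was also compared as a ratio of counts within the library, which does not depend on the scaling between libraries. Of 7 pairs, 0 had an unadjusted p under 0.05 in a two-sided exact permutation test, with a smallest possible p of 0.0286. After adjustment over the pairs, no pair could have fallen under 0.05 on its own, so the adjusted p decide nothing about 1 pair. Eno1 over Eno3 came nearest, with a log2 ratio higher by 0.19 in T3TG (two-sided exact permutation p = 0.0571, adjusted p = 0.400). Per length, Eno1 made up 1.318%, 1.385%, 1.291% and 1.227% of enolase transcripts in T3TG replicates 1 to 4, against 1.253%, 1.090%, 1.070% and 1.168% in WT replicates 1 to 4. WT replicate 1 alone reached into the T3TG range.

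Hk1 over Hk2 was higher by 0.25 in T3TG (exact permutation p = 0.114, adjusted p = 0.400). Hk1 made up 5.81% ± 1.57 of the transcripts of Hk1 and Hk2 per length in T3TG and 4.82% ± 0.169 in WT. T3TG replicate 2, at 8.14%, lay far above the other 7 libraries, which ranged from 4.71% to 5.23%, and without it the difference in the log2 ratio was 0.0631. The other 5 pairs had adjusted p from 0.450 to 1 (exact permutation), with differences of 0.35 for Pfkl over Pfkm, 0.27 for Pgam1 over Pgam2, -0.04 for Aldoc over Aldoa, -0.04 for Ldhb over Ldha and -0.15 for Pfkfb3 over Pfkfb1. Ldhb made up 17.1% ± 3.0 of its pair in T3TG and 17.4% ± 2.22 in WT. Pfkfb3, unlike the other non-muscle forms, was the larger part of its pair, with 73.7% ± 5.55 in T3TG and 74.1% ± 15.3 in WT, and WT replicate 4 stood at 51.4%.

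**Figure D4:**
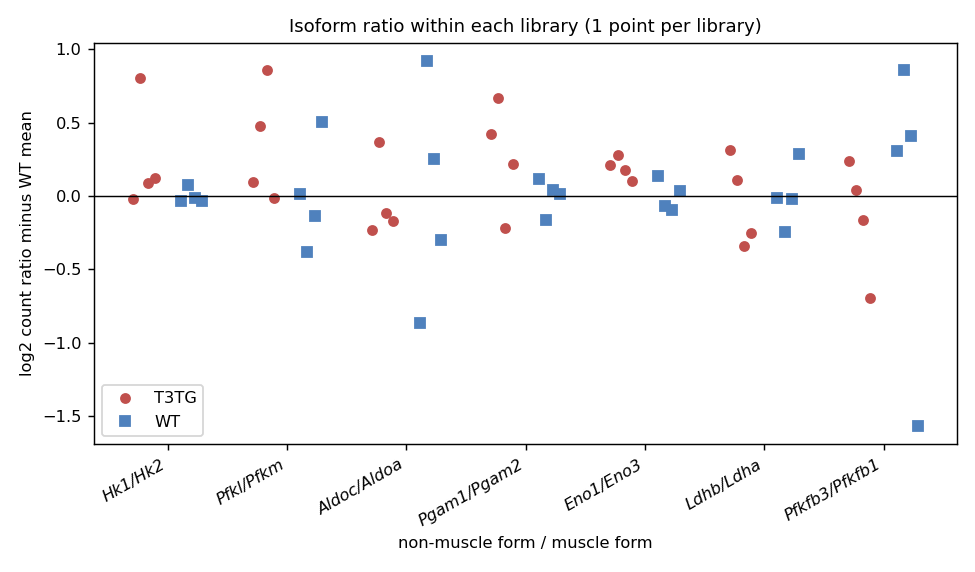
Log2 ratio of the non-muscle to the muscle form of 7 enzymes within each library, minus the mean of the WT libraries, with T3TG as red circles left of WT as blue squares. T3TG and WT points overlap in all 7 pairs, and single libraries stand out, T3TG replicate 2 in Hk1/Hk2 and WT replicate 4 in Pfkfb3/Pfkfb1.

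In the wider pathway 0 genes were called either. Of 27 other genes of glycolysis, 19 could be tested, with 7 higher and 12 lower values in T3TG and 0 called by edgeR or DESeq2. At an edgeR unadjusted p under 0.05, 5.88% of all genes were higher and 2.45% lower, and of the 19 only 1 was higher. This was Pfkp, the platelet phosphofructokinase, with 13.5, 12.4, 19.3 and 15.8 CPM in T3TG replicates 1 to 4, against 13.3, 11.04, 11.6 and 12.7 CPM in WT replicates 1 to 4 (log2 fold change 0.33, SE 0.14, edgeR unadjusted p = 0.0335, adjusted p = 0.559). Its groups overlap through T3TG replicate 2. In the 6 libraries the log2 fold change of Pfkp was 0.27 (edgeR unadjusted p = 0.0867). With the block on the first title number it was 0.31 (edgeR unadjusted p = 0.116). Pgm2, a phosphoglucomutase and the most abundant of the 27, had 1192 ± 82.7 CPM in T3TG and 1236 ± 96.1 CPM in WT (-0.05, SE 0.09). The symbols Pgm1 and Pgm2 have named different genes in different annotation releases. Hkdc1, Pgk2, Ldhc and Fbp1 were at 0 counts in every library.

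Of 26 other genes of glycogen metabolism, 24 could be tested, with 10 higher and 14 lower values, 0 called by edgeR or DESeq2, and an unadjusted p under 0.05 in 1 higher and 2 lower genes, against 5.88% and 2.45% of all genes. Pygl, the liver phosphorylase, had 3.42, 3.31, 3.78 and 3.14 CPM in T3TG replicates 1 to 4, against 2.43, 2.65, 1.64 and 2.33 CPM in WT replicates 1 to 4. All 4 T3TG values exceeded all 4 WT values, at a level far below that of Pygm (log2 fold change 0.59, SE 0.23, edgeR unadjusted p = 0.0205, adjusted p = 0.481). Calm3, 1 of the genes for calmodulin, which is also a subunit of phosphorylase kinase, had 332 ± 24.5 CPM in T3TG and 383 ± 37.9 CPM in WT (-0.21, SE 0.09, unadjusted p = 0.0393, adjusted p = 0.570). Prkag3, the muscle gamma subunit of AMP-activated kinase, had 202 ± 27.2 CPM in T3TG and 250 ± 46.0 CPM in WT (-0.31, SE 0.14, unadjusted p = 0.0416, adjusted p = 0.579). In the 6 libraries the log2 fold change was 0.53 for Pygl, -0.23 for Calm3 and -0.34 for Prkag3 (edgeR unadjusted p = 0.0827, 0.0822 and 0.0590). With the block on the first title number it was 0.48, -0.14 and -0.08 (edgeR unadjusted p = 0.157, 0.314 and 0.626).

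Ppp1cb, the catalytic phosphatase subunit that the glycogen-targeting subunits bind, was, beside Pygl, the other gene of the 24 whose groups did not overlap (3.12% of all genes with T3TG above and 1.66% with T3TG below), and it was singled out after its values were seen. It had 384 ± 14.5 CPM in T3TG and 418 ± 14.0 CPM in WT (-0.12, SE 0.08, edgeR unadjusted p = 0.125).

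Markers of other cell types had mostly higher values in T3TG, and edgeR called 2 of them, both in the fibroblast list. In the 6 libraries edgeR called 0 of all genes higher, so neither call held there. Of all 14064 genes tested, 6901 had a higher value in T3TG and 0.0711% were called higher. With a higher value, 9 of 9 fibroblast and 8 of 9 macrophage markers had an edgeR unadjusted p under 0.05. So did 5 of 8 endothelial and 3 of 7 tested adipocyte markers, against 5.88% of all genes. The groups did not overlap in 5, 5, 2 and 0 genes of these lists, against 3.12% of all genes. Red cell and Schwann cell markers had 0 of either. Fibroblast markers in 9 of 9 genes had a higher value in T3TG, with sums of 1013 to 1307 CPM in T3TG and 758 to 932 CPM in WT. Macrophage markers had higher values in 9 of 9 (233 to 412 CPM in T3TG and 176 to 222 CPM in WT), endothelial markers in 8 of 8 (431 to 493 CPM in T3TG and 313 to 404 CPM in WT) and adipocyte markers in 7 of 7 tested (166 to 361 CPM in T3TG and 157 to 216 CPM in WT). Red cell markers had higher values in 5 of 5 through T3TG replicate 3, at 523 CPM against 67.6 to 133 CPM in the other 7 libraries. In the 6 libraries the median log2 fold change was -0.35 for red cell markers and 0.28 for macrophage markers, against 0.99 and 0.57 in all 8. It was 0.36 for fibroblast, 0.16 for endothelial, 1.70 for adipocyte and 0.19 for Schwann cell markers, against 0.45, 0.29, 1.79 and 0.15. Schwann cell markers had higher values in 5 of 6.

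Muscle markers had the opposite sign and none was called. General markers had lower values in T3TG in 8 of 8 (median log2 fold change -0.07), fast fiber markers in 8 of 9 (-0.14) and slow fiber markers in 7 of 9 (-0.14). No defining marker was at 0 in all libraries. In a whole muscle, fewer cells of a type and less RNA per cell cannot be told apart, and the part of these cell types in the values of Hk1, Eno1, Pfkl, Pgam1, Pfkp and Pygl was not tested.

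The T3TG libraries differed more from each other than the group means did. Of the 31 genes, 10, 10, 25 and 24 stood above their WT mean in T3TG replicates 1 to 4, against 6, 15, 19 and 20 in WT replicates 1 to 4. The median deviation from the WT mean, in log2 units, was -0.11, -0.08, 0.12 and 0.10 in T3TG replicates 1 to 4, against -0.05, -0.01, 0.04 and 0.09 in WT replicates 1 to 4. After TMM scaling T3TG thus split into a low pair (replicates 1 and 2) and a high pair (replicates 3 and 4), and WT spread over the interval between them. The TMM factors, of which a larger one lowers the CPM, were 1.06 and 1.04 in the low pair and 0.981 to 0.988 in the other libraries. As shares of all counts, without these factors, the low pair (4.48% and 4.55%) lay within the WT range (4.47% to 4.90%). The part of the scaling in the low pair was not tested.

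Of the muscle forms 3, 3, 12 and 12 of 13 genes lay above the WT mean in T3TG replicates 1 to 4, and of the shared forms 1, 1, 8 and 8 of 11. T3TG replicate 3 was the highest library for 11 of the 31 genes, while T3TG replicate 1 was the lowest for 9 and T3TG replicate 2 for 7. The SD of the CPM was larger in T3TG than in WT for 20 of the 31 genes and for 13 of the 15 genes of the glycolytic steps, against 51.2% of all genes tested. These genes share libraries and are not independent of each other.

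General muscle markers showed the same order among T3TG libraries. Their sum was 64434, 66693, 83340 and 79061 CPM in T3TG replicates 1 to 4, against 75429, 78163, 72026 and 76987 CPM in WT replicates 1 to 4. The fast fiber sum was 97956, 100230, 119201 and 126517 CPM in T3TG replicates 1 to 4, against 117469, 126745, 113992 and 109697 CPM in WT replicates 1 to 4. The part of muscle fiber content in the split was not tested. The low pair and the high pair each held 1 library with even counts.

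**Figure D5:**
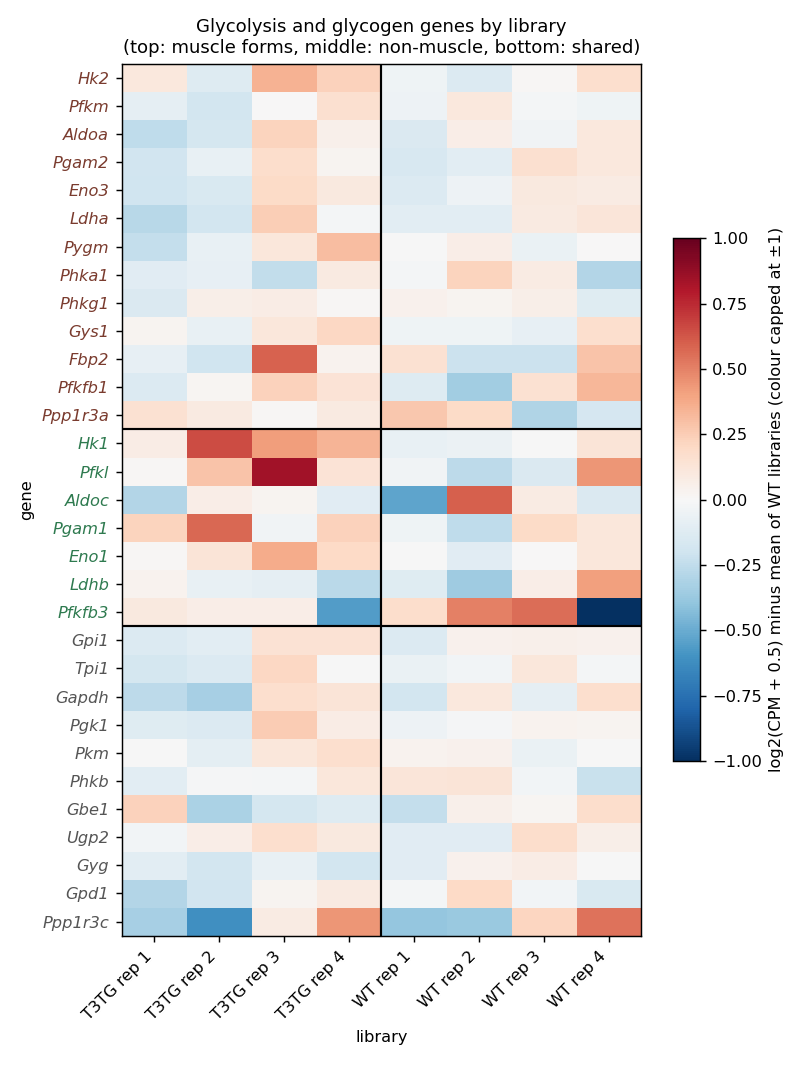
Log2(CPM + 0.5) of each gene in each library minus the mean of the 4 WT libraries, T3TG replicates left and WT replicates right, with the colour capped at 1 in either direction. Rows are the muscle, non-muscle and shared forms from top to bottom. In the muscle and shared blocks T3TG replicates 1 and 2 are mostly blue and replicates 3 and 4 mostly red, Hk1 is red in all 4 T3TG libraries, and Pfkfb3 is blue in replicate 4 of both groups.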

How the data were processed

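PolyA-enriched RNA of gastrocnemius muscle was sequenced as read pairs in 8 libraries, 4 T3TG and 4 WT, per the labels' protocols. Per the submitters' processing notes, the build was mm10 and the tools included DESeq2 1.34.0, HTSeq 0.9.1 and HISAT2 2.2.1. The annotation, the strand setting and the handling of reads that fit several genes were not given in the sources used here. The authors deposited raw counts per gene symbol. Of 35976 rows, 27 named by a date were left out (0.0885% to 0.0961% of the counts).

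The counts were fitted in edgeR 4.0.16 (R 4.3.3) by its quasi-likelihood method after filterByExpr and TMM scaling, with only the group in the model. Benjamini-Hochberg adjustment ran over 14064 genes, with a threshold of 0.05. Intervals are 95%. Isoform ratios (pseudocount 0.5) and the share of counts were compared by exact permutation of the 8 libraries. The test was checked on simulated counts. Alternatives were other scaling, filters, DESeq2 1.42.0, a replicate block, halved even counts and left-out libraries.

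The members and lists were chosen with earlier results of these data known. All 31 members are named. Of the other pathway genes, those with an unadjusted p under 0.05 and the most abundant are named, except 1 that is not reported here. Levels per length use the longest principal transcript of GENCODE M21, and coordinates are from RefSeq.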

Additional observations from a re-analysis of the deposited data

Results flagged for a closer look

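Of 86 groups of 4 values checked, 4 held a library far from the other 3, with a gap of over 0.83 of the group's range. Chance flags about 1 in 20 groups. Pfkfb3 in T3TG had replicate 4 at 241 CPM against 372 to 380 CPM, a gap of 0.942 of the range. Gys1 in WT had replicate 4 at 533 CPM against 450 to 461 CPM (0.861). Gpi1 in WT had replicate 1 at 859 CPM against 969 to 975 CPM (0.941). Prkag3 in WT had replicate 4 at 181 CPM against 271 to 275 CPM (0.952). WT replicate 4 is the distant library in 2 of these. Prkag3 had a log2 fold change of -0.31 in 8 libraries and -0.44 without WT replicate 4. With the replicate block, in which WT replicates 2 and 4 alone stand for WT, it was -0.08 (edgeR unadjusted p = 0.626).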

How the results depend on the processing

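Under 16 alternatives to the fit, 0 of the 31 genes were called, and 21 had a log2 fold change of the other sign in at least 1, the largest of them 0.215 in size in the reported fit. Genes called higher among all genes numbered 10, against 52 with total counts, 104 with no filter, 0 with a stricter filter, 99 with DESeq2, 3 with the replicate block, 0 in the 6 libraries and 0 to 37 with 1 library left out. Genes called lower numbered 0, against 3 with no filter, 6 with DESeq2, 1 with the replicate block and 0 to 1 with 1 library left out. The cause was not tested. The block used the first title number, of which the groups share 2 values. Same-numbered libraries correlated at 0.144, -0.077, 0.192 and 0.086 in their deviations, and differently numbered ones at -0.215 to 0.098. These ranges overlap, with the highest values among same-numbered libraries, so pairing by the number is not settled, and the main fit left it out. The number is 6 in T3TG replicates 2 to 4 and in WT replicate 4, so it is uneven between the groups. The numbers of WT replicates 1 and 3 do not occur in T3TG, so these 2 libraries add nothing to the blocked group difference. In the fit with the block Hk1 was at 0.27 (edgeR unadjusted p = 0.15) and Pfkfb3 at 0.47. The median of the non-muscle forms was 0.18 and was 0.041 in the 6 libraries. With 1 library left out, isoform ratios ran from 0.0631 to 0.339 for Hk1/Hk2, 0.186 to 0.521 for Pfkl/Pfkm (0.0404 in the 6 libraries), 0.141 to 0.436 for Pgam1/Pgam2 and 0.160 to 0.237 for Eno1/Eno3. For Hk1/Hk2, Pgam1/Pgam2 and Eno1/Eno3, 1 such subset each reached an unadjusted exact permutation p of 0.0286, the smallest possible with 3 against 4: without T3TG replicate 1, T3TG replicate 3 and WT replicate 1. Pairs that changed sign ran from -0.328 to 0.268 (Aldoc/Aldoa), -0.160 to 0.0560 (Ldhb/Ldha, at 0.0299 in the 6 libraries) and -0.670 to 0.139 (Pfkfb3/Pfkfb1). The share of counts differed by -0.0238 to 0.232 points. Aldoc, at most 1.21 CPM, has the widest interval of the 31, 0.419-fold to 1.77-fold.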
